A study of Mus musculus with 4 samples.

Results

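Transcripts of 10 genes of the pancreatic digestive juice were followed in RNA from mouse spleen: Prss2, Ctrb1, Ctrl, Cela1, Cela2a, Pnliprp1, Cel, Clps, Zg16 and Sycn. Every probe set whose platform annotation names 1 of these genes was taken, which gave 10 probe sets, 1 for each gene, of 12422 on the array after the controls were left out. The genes were picked with the knockout and wild-type values of these same arrays known, so those values are a description of the choice and carry no test here. Spleens came from female nrf2 -/- mice (2 arrays, called knockout) and from female nrf2 +/+ littermates (2 arrays, called wild type), all 5 months old. The parents of both genotypes were heterozygotes, bred from nrf2 -/- mice on a C57B6/129SVJ background and nrf2 +/+ mice on a C57B6/SJL background, so the littermates share a mixed background that can differ from animal to animal. Single animals and pools cannot be told apart from the labels, so the spread between arrays may be technical. Nrf2 is the transcription factor that induces detoxification and antioxidant genes, and its gene Nfe2l2 read 202 and 178.6 in knockout arrays, against 3537 and 6321 in wild-type arrays.

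The exocrine pancreas is made of acini, whose cells make digestive enzymes as inactive precursors, pack them in zymogen granules and release them into the duct. These mRNAs are among the most abundant in an acinar cell, and the tail of the pancreas lies against the hilum of the spleen. The spleen itself is a lymphoid and blood-filtering organ. In bulk RNA, fewer cells of a type and less RNA per cell cannot be told apart.

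Wild-type replicate 1 stood apart from the other arrays before any gene was singled out. Across 7453 tested probe sets its Pearson correlation with the others was 0.849 to 0.851, against up to 0.947 among the other 3 arrays, as a description across probe sets, which are not independent. More than 2-fold above or below all other arrays were 15.4% of its tested probe sets, against 0.738% to 1.84% in each of the others. The Gapdh control probes, whose 3' to 5' signal ratio rises with RNA degradation or incomplete labelling, gave ratios of 25.5 and 34.8 in the knockout arrays, against 88.3 (replicate 1) and 8.07 (replicate 2) in the wild-type arrays. The same ratio for beta-actin was 19.3 and 16.1 in the knockout arrays, against 14.4 and 8.86 in the wild-type arrays. By this control wild-type replicate 1 was not extreme. In every array the 3' signal was at least 8.07 times the 5' signal by both controls, so the question of RNA or labelling quality is not limited to 1 array. The part of these ratios or of the array that stood apart in the values below was not tested. Values are therefore given by array and, where it matters, without wild-type replicate 1. Of 23 probe sets for spleen markers 20 were bright enough to test and 2 lay below the floor in all arrays. The B cell gene Cd79b, for example, read 46186 and 33489 in knockout arrays, against 93167 and 46460 in wild-type arrays. Of the 20 tested, 11 were highest in wild-type replicate 1, and others were lowest there. Hmox1 was among the latter, at 19357 and 25098 in knockout arrays, against 4840 and 32609 in wild-type arrays.

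All 10 genes read highest in wild-type replicate 1, and 8 of the 10 were lower in both knockout arrays than in both wild-type arrays. Knockout arrays lay below both wild-type arrays in 12.2% of all tested probe sets, and wild-type replicate 1 was highest in 37.3%. Since the genes were chosen on this contrast, the count of 8 is not read further. The summed intensity of the 10 probe sets was 10108 and 12864 in knockout arrays, against 97136 and 23623 in wild-type arrays. That was 0.022% and 0.0277% of all signal in knockout arrays, against 0.172% and 0.0527% in wild-type arrays.

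**Figure D1:**
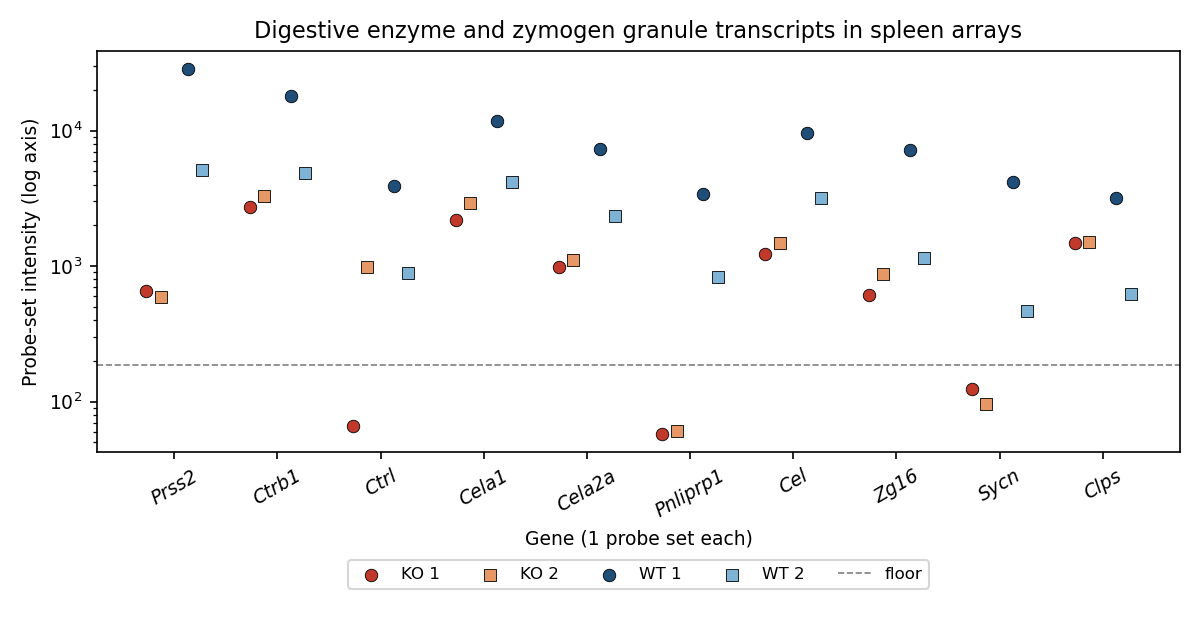
Probe-set intensity of the 10 genes (log axis) in knockout (KO) and wild-type (WT) spleen arrays, 1 point per array, with the floor of 185.5 as a dashed line. Wild-type replicate 1 is the highest point for all 10 genes, and Ctrl and Clps are the genes in which the genotypes overlap.

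Among the proteases, trypsinogen differed most between the genotypes. Prss2 encodes anionic trypsinogen, the precursor of trypsin, which activates the other enzyme precursors in the gut. Prss2 read 653.1 and 586.9 in knockout arrays, against 28520 and 5090 in wild-type arrays. The genotypes were far apart, and the wild-type arrays differed 5.60-fold from each other. On the log2 scale knockout minus wild type was -4.28 (SE 0.73, n = 2 per group), and -3.04 without wild-type replicate 1. The name of the Prss2 probe set ends in a mark for probes shared within a gene family, so its signal cannot be told apart from that of related trypsinogen genes.

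The chymotrypsins differed less between the genotypes than Prss2 by their array values. Ctrb1 encodes chymotrypsinogen B, which cuts after large aromatic residues once activated. Ctrb1 read 2716 and 3278 in knockout arrays, against 17908 and 4862 in wild-type arrays. Wild-type replicate 2 was 1.63-fold above the knockout arrays, so most of the log2 difference of -1.65 (SE 0.61) came from wild-type replicate 1 (-0.71 without it). Ctrl, a chymotrypsin-like protease, read 65.6 and 977 in knockout arrays, against 3893 and 881.7 in wild-type arrays. Here the genotypes overlapped, because knockout replicate 2 lay above wild-type replicate 2, while knockout replicate 1 lay below the floor of 185.5. With that value raised to the floor the log2 difference of Ctrl was -2.12 (SE 0.91), and it was -0.92 without knockout replicate 1. The probe-set names of Ctrb1 and Ctrl also carry a mark for less specific probes.

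The pancreatic elastases, also proteases, resembled each other in their array values. Cela1 read 2186 and 2915 in knockout arrays, against 11848 and 4184 in wild-type arrays. Cela2a read 977.3 and 1107 in knockout arrays, against 7371 and 2348 in wild-type arrays. Both were separate between the genotypes, with log2 differences of -1.48 (SE 0.55) for Cela1 and -2.0 (SE 0.565) for Cela2a. Without wild-type replicate 1 these were -0.73 and -1.18.

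The lipid-digesting group held a pair of enzymes that separated the genotypes and a cofactor that did not. Cel, the bile salt-activated carboxyl ester lipase, read 1236 and 1481 in knockout arrays, against 9546 and 3186 in wild-type arrays (log2 -2.03, SE 0.55). Pnliprp1, a relative of pancreatic lipase, read 58 and 60.3 in knockout arrays, against 3410 and 834.5 in wild-type arrays. Both knockout values lay below the floor of 185.5, so Pnliprp1 was at least 9.10-fold lower in knockout spleen, or at least 4.50-fold without wild-type replicate 1. Clps encodes colipase, the small protein that anchors pancreatic lipase to fat droplets in the presence of bile salts. Clps read 1484 and 1494 in knockout arrays, against 3187 and 622.4 in wild-type arrays. Its knockout arrays lay between the wild-type arrays, and the log2 difference of 0.08 (SE 0.71) became 1.26 when wild-type replicate 1 was left out and -1.10 when wild-type replicate 2 was.

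Both granule protein genes read lower in both knockout arrays and differed most between the wild-type arrays. Zg16, a lectin-like protein of zymogen granules, read 609.6 and 869 in knockout arrays, against 7247 and 1150 in wild-type arrays. Sycn, which encodes the granule protein syncollin, read 122.9 and 96.1 in knockout arrays, against 4207 and 462.9 in wild-type arrays. Sycn was at least 7.52-fold lower in knockout spleen, a bound because neither knockout value reached the floor, and at least 2.50-fold without wild-type replicate 1. Wild-type replicate 1 exceeded wild-type replicate 2 by 6.30-fold for Zg16 and 9.09-fold for Sycn, the highest folds among the 10 genes. The log2 difference of Zg16 was -1.99 (SE 0.785), and -0.66 without wild-type replicate 1.

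None of the 10 genes had an adjusted p under 0.05 in the limma fit over all tested probe sets. All 10 were bright enough to test, Pnliprp1 and Sycn only through the wild-type arrays, since both their knockout values lay below the floor. Over all probe sets 4 of 7453 passed (0.0537% lower and 0% higher), and 130 had an unadjusted p under 0.05. The 10 genes were chosen on this contrast, so their count is a description and not a test. The median difference over the 10 genes was -2.01 on the log2 scale, beside 0.04 over all tested probe sets. Leaving out wild-type replicate 1 gave a median of -1.11, and leaving out replicate 2 of that genotype gave -3.01.

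The next comparison was between the wild-type arrays, which share a genotype. Wild-type replicate 1 exceeded wild-type replicate 2 by 2.83-fold (Cela1) to 9.09-fold (Sycn), with a median of 4.25-fold over the 10 genes. A fold of 2.83 or more between these arrays was seen in 2.67% of all tested probe sets, whose median log2 difference was -0.01, with quartiles of -0.74 and 0.56. There is 1 array on each side, so no test was made, and the 10 genes were chosen with these arrays in view. Probe sets for other acinar products that are assigned to several genes each, and so name none of them, lay in the same range. A pair of amylase family probe sets gave 3.68-fold and 3.94-fold, and a pair of trypsinogen family probe sets gave 4.27-fold and 3.55-fold. The first amylase probe set read 42.8 and 6.4 in knockout arrays, against 54968 and 14955 in wild-type arrays. The second read 226.7 and 259.7 in knockout arrays, against 78338 and 19907 in wild-type arrays. The trypsinogen family pair read 377.6 and 284.4, and 332.8 and 1268, in knockout arrays, against 8678 and 2034, and 14515 and 4089, in wild-type arrays. A further trypsinogen family probe set lay below the floor in all 4 arrays.

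Intensities of different probe sets depend on their probes as well as on transcript level, so a ratio between genes in 1 array is not a ratio of transcripts. What can be read is how far that ratio moves from array to array. Over the 45 pairs of the 10 genes, the ratio moved by a median of 1.44-fold between the wild-type arrays, 1.21-fold between the knockout arrays and 2.23-fold between the genotype means. Knockout values below the floor were raised to it for these shifts. The orders and rank correlations that follow used the deposited values, so those of dim genes rest partly on values below the floor. The order of a pair was the same in both wild-type arrays for 42 of 45 pairs and in all 4 arrays for 29. Spearman's rho of the 10 levels was 0.927 between the wild-type arrays and 0.915 between the knockout arrays, as a description over 10 genes whose probe sets share each array.

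Set against Cel, a probe set with no cross-hybridisation mark and a signal above the floor everywhere, the genes differed in how far their ratios moved. The choice of Cel was made after its values were seen. The ratio of Cela2a to Cel was 0.791 and 0.748 in knockout arrays, against 0.772 and 0.737 in wild-type arrays, nearly the same in all 4. Cela1 to Cel was 1.77 and 1.97 in knockout arrays, against 1.24 and 1.31 in wild-type arrays. Ctrb1 to Cel was 2.20 and 2.21 in knockout arrays, against 1.88 and 1.53 in wild-type arrays. The knockout and wild-type ratios were separate for Cela1 and Ctrb1, by less than for Prss2.

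The ratios of Prss2, Pnliprp1, Clps and amylase lay further apart between the genotypes, and those of Zg16 and Ctrl overlapped. The ratio of Sycn overlapped once its knockout values were raised to the floor. Prss2 to Cel was 0.528 and 0.396 in knockout arrays, against 2.99 and 1.60 in wild-type arrays. Pnliprp1 to Cel was 0.0469 and 0.0407 in knockout arrays, with Pnliprp1 itself below the floor, against 0.357 and 0.262 in wild-type arrays. Clps to Cel shifted in the other direction, at 1.20 and 1.01 in knockout arrays, against 0.334 and 0.195 in wild-type arrays. The amylase probe set with the higher signal stood at 0.183 and 0.175 of Cel in knockout arrays, against 8.21 and 6.25 times Cel in wild-type arrays. Amylase thus differed far more between the genotypes than Cel did, while its ratio to Cel was similar between arrays of 1 genotype. Zg16 to Cel overlapped, at 0.493 and 0.587 in knockout arrays, against 0.759 and 0.361 in wild-type arrays, and Sycn to Cel was 0.0994 and 0.0649 in knockout arrays, against 0.441 and 0.145 in wild-type arrays. Ctrl to Cel was 0.0531 and 0.660 in knockout arrays, against 0.408 and 0.277 in wild-type arrays. The knockout arrays alone spanned the wild-type ratios of Ctrl, whose value in knockout replicate 1 lay below the floor, so that knockout replicate 2 was at least 5.27-fold higher. The 7 genes with all 4 values above the floor differed between the knockout arrays by 0.899-fold to 1.43-fold (replicate 2 over replicate 1).

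**Figure D2:**
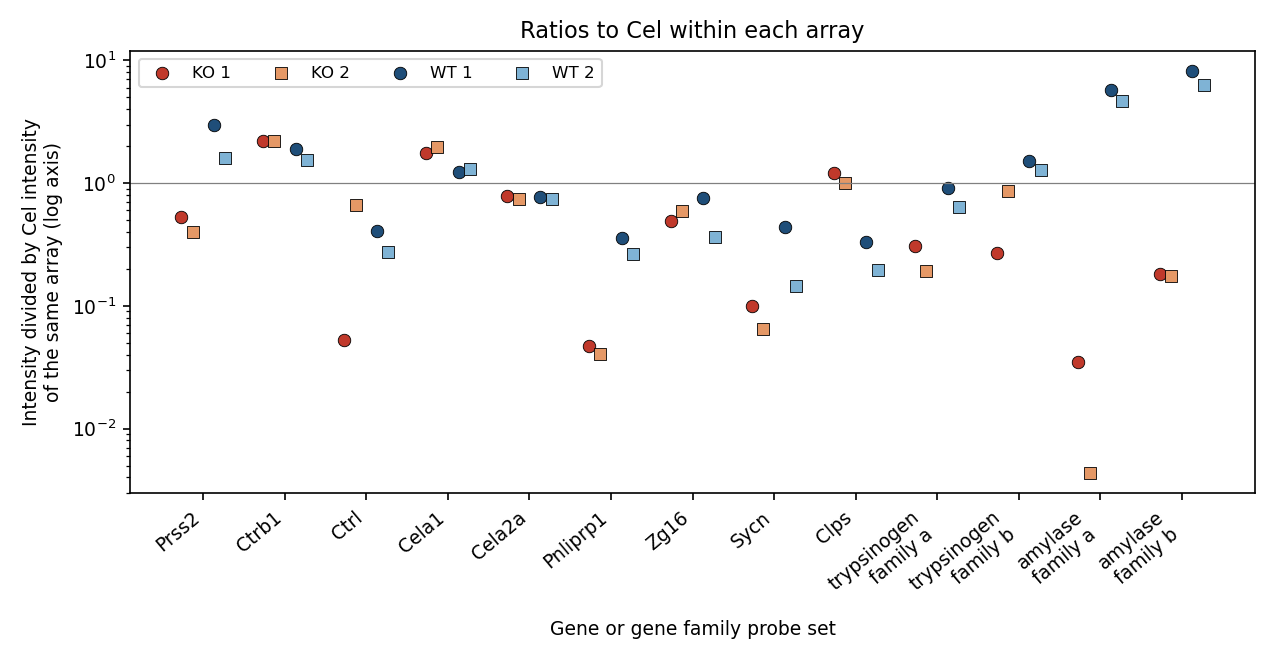
Intensity of each probe set divided by that of Cel in the same array (log axis), for knockout (KO) and wild-type (WT) arrays, 1 point per array. Cela2a lies at 0.737 to 0.791 in all 4 arrays, while amylase family b lies at 0.183 and 0.175 in knockout arrays and at 8.21 and 6.25 in wild-type arrays.

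The mean knockout intensity of each probe set was also subtracted from the wild-type values as a baseline. The excess over that baseline in wild-type replicate 1 was then 4.32-fold (Pnliprp1) to 15.8-fold (Zg16) that in wild-type replicate 2, for 9 of the 10 genes. It was 6.24-fold for Prss2, 4.48-fold for Cel, 4.85-fold for Cela2a and 5.69-fold for Cela1. Ctrb1 gave 7.99-fold and Sycn 11.6-fold. Ctrl gave 9.35-fold, but its baseline averages knockout values of 65.6 and 977, the higher of which exceeds wild-type replicate 2. The 15.8-fold of Zg16 divides by an excess of 410.7 in wild-type replicate 2. Its baseline averages knockout values of 609.6 and 869, so that fold is imprecise. For the amylase pair the values were 3.68-fold and 3.97-fold, and for the trypsinogen family pair 4.90-fold and 4.17-fold. Clps had no excess in wild-type replicate 2, where its value minus the knockout mean of 1489 was -866.5.

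**Figure D3:**
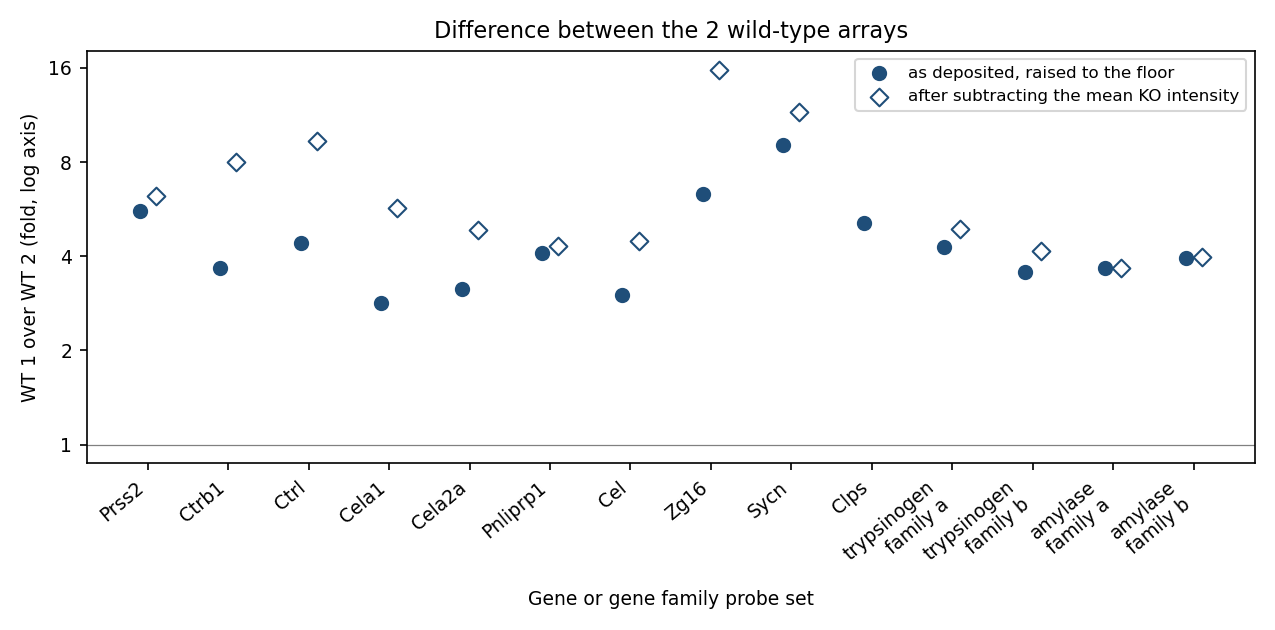
Fold of wild-type replicate 1 over wild-type replicate 2 (log axis) for the 10 genes and the amylase and trypsinogen family probe sets, from intensities raised to the floor (circles) and after subtraction of the mean knockout intensity (diamonds). Circles run from 2.83 (Cela1) to 9.09 (Sycn), diamonds from 3.68 (amylase family a) to 15.8 (Zg16), and Clps has no diamond.

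Other secreted products of the exocrine pancreas were looked at from a fixed list of 35 genes, of which 14 were measured by 20 probe sets. Of these, 5 probe sets were bright enough to test, and 0 passed in either direction in the limma fit. Their median log2 difference was -0.07, beside 0.04 over all tested probe sets, with 3 measuring lower and 2 higher. The amylase and trypsinogen family probe sets, assigned to several genes each, are not in this count. Both amylase probe sets passed, lower in knockout (limma adjusted p = 0.00726 each), as did Nfe2l2 (0.0199). The knockout values of the amylase pair lay below or near the floor, so the pair was bright enough to test through the wild-type arrays alone. Raising the knockout values of the first to the floor removed their spread. Amylase was listed with these data known, so its p-values are a description and no independent support. The trypsinogen family pair did not pass (0.415 and 0.72). Tff2, a trefoil peptide of mucus-secreting epithelia, read 71.2 and 23.4 in knockout arrays, against 3530 and 459.1 in wild-type arrays (at least 6.86-fold lower, limma adjusted p = 0.992, and at least 2.48-fold lower without wild-type replicate 1). Klk1, a tissue kallikrein, and Pnliprp2, another lipase relative, had the array order seen for Clps. On its brighter probe set, marked for shared probes, Klk1 read 1245.5 and 1246 in knockout arrays, against 2901 and 411.1 in wild-type arrays. Its other probe set was above the floor in wild-type replicate 1 alone (224). Pnliprp2 read 741 and 595.4 in knockout arrays, against 859.9 and 336.2 in wild-type arrays. This order, with wild-type replicate 1 highest and wild-type replicate 2 lowest, was found in 14% of all tested probe sets, and the Gapdh 3' to 5' ratios had it too, while those of beta-actin did not.

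Of the 15 probe sets of the same list too dim to test, 11 were highest in wild-type replicate 1 and 4 in another array. Spink1, the trypsin inhibitor stored with the zymogens, read 49.5 and 38.3 in knockout arrays, against 436.8 and 130.7 in wild-type arrays. Rnase1, pancreatic ribonuclease, read 61.4 and 12.7 in knockout arrays, against 349 and 110.8 in wild-type arrays. Cuzd1, a zymogen granule membrane protein, read 30.7 and 36.2 in knockout arrays, against 426.3 and 52.9 in wild-type arrays. For each of these 3 genes 3 of the 4 values lay below the floor, so no fold is given. Reg3b, an antibacterial lectin, went the other way on 1 of its probe sets, at 378.6 and 102.2 in knockout arrays, against 121.7 and 83.6 in wild-type arrays. Reg1, a lectin-like secreted protein, read 611.2 and 119.5 in knockout arrays, against 823.2 and 848.5 in wild-type arrays on its tested probe set. Pla2g1b, the pancreatic phospholipase A2, was bright and overlapped between genotypes, at 3607 and 6127 in knockout arrays, against 5683 and 4268 in wild-type arrays.

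Genes that acinar cells use inside the cell gave mixed values. From a list of 22 regulators and granule-traffic genes, 9 probe sets were tested, 0 passed in either direction, and their median log2 difference was -0.10. Many of these genes are active in blood cells too. Gatm, the first enzyme of creatine synthesis, read 9745 and 12216 in knockout arrays, against 1797 and 8697 in wild-type arrays. Xbp1, a secretory-cell transcription factor also used by plasma cells, read 6969 and 3187 in knockout arrays, against 1516 and 5552 in wild-type arrays. Vamp8, a granule fusion protein and the brightest gene of the list, read 28858 and 30976 in knockout arrays, against 53755 and 29287 in wild-type arrays on the brighter of its probe sets. Gatm and Xbp1 were lowest in wild-type replicate 1 and Vamp8 highest there, and 5 of the 9 tested probe sets were highest in that array. Rbpjl, the acinar subunit of the PTF1 factor, was dim, at 227.2 and 316.3 in knockout arrays, against 506.5 and 221.1 in wild-type arrays, and was singled out after its values were seen.

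Markers of other tissues near the spleen were listed as well. The hormone genes of the pancreatic islet, Ins2, Gcg and Iapp, lay below the floor on every probe set in all 4 arrays, and were also singled out after their values were seen. The hormone gene Ppy was bright on a probe set marked for shared probes, at 1457 and 1469 in knockout arrays, against 1474 and 1139 in wild-type arrays. Sst (244.9) and Pdx1 (406.6) were among those above the floor in wild-type replicate 1 alone. Chga, on 1 of its probe sets, read 476.5 and 276.5 in knockout arrays, against 1105 and 195.7 in wild-type arrays. Of the 22 islet probe sets too dim to test, 7 were highest in wild-type replicate 1 and 15 were not. Of 25 islet probe sets 3 were tested, with a median difference between the wild-type arrays of -0.40 on the log2 scale, against 2.09 for the 10 genes. The medians were -0.64 for 3 pancreatic duct probe sets, -0.02 for 7 fat, 0.68 for 2 stomach, 0.18 for 4 liver and 0.21 for 20 spleen probe sets. The islet median rests on Ppy and Cpe alone, and the duct median on Car2, Epcam and Aqp1. Car2 read 11492 and 80569 in knockout arrays, against 36528 and 56955 in wild-type arrays. Whether these probe sets report islet or duct tissue here was not tested. The liver gene Alb, for albumin, was high in the other wild-type array, at 487.7 and 360 in knockout arrays, against 840.2 and 4894 in wild-type arrays. No probe set of these 6 lists passed the limma threshold in either direction.

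**Figure D4:**
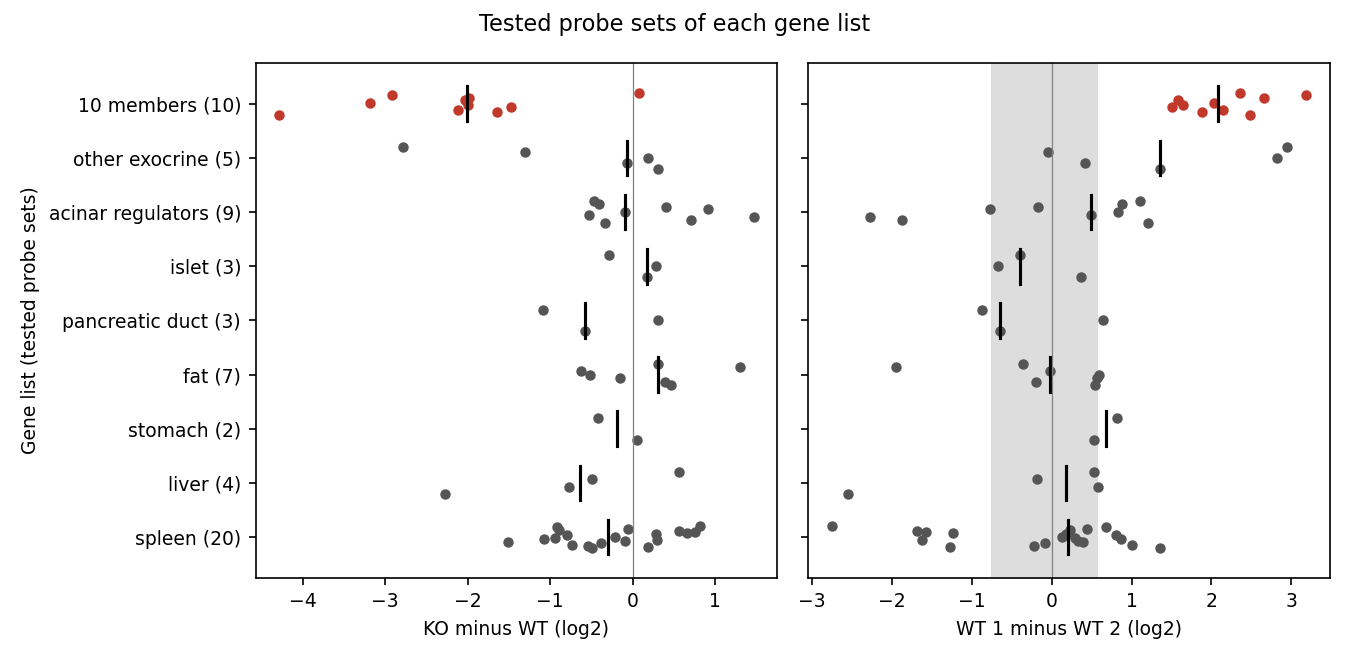
Log2 differences of the tested probe sets of each gene list, knockout minus wild type on the left and wild-type replicate 1 minus replicate 2 on the right, with the list median as a bar, the number of tested probe sets in brackets and the quartiles of all tested probe sets shaded. The 10 genes have medians of -2.01 on the left and 2.09 on the right.

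By the distance of centred log2 values over the 4 arrays, the named probe sets outside the 10 genes nearest to their median pattern were those of Miip, Tnnt2, P2rx6, Urod, Tnpo1 and Gm10046. Their distances were 0.542 to 0.917, against 0.281 (Cela2a) to 2.353 (Prss2) for the 10 genes themselves. Urod, an enzyme of haem synthesis, read 1762 and 4426 in knockout arrays, against 16356 and 7061 in wild-type arrays. Tnnt2, a troponin of heart muscle, read 302.2 and 271.6 in knockout arrays, against 1506 and 542.8 in wild-type arrays. A likeness over 4 arrays is weak. Of 6693 probe sets outside the 10 genes, 6 were as near as the median member and 2590 as near as the farthest, Prss2.

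The promoters are shown because acinar genes share a known control element, and no link to the array values was tested. PTF1, the acinar transcription factor complex, is known to bind an E-box such as CACCTG beside a second box with the core TGGGAA. RefSeq promoter sequences on GRCm38.p6, from 250 bases before to 50 bases after the start, were found for 8 of the 10 genes, and not used here for Clps and Zg16. Either strand of CACCTG was found in 5 of the 8 and in 20.2% of all 32851 promoters. TGGGAA was found in 7 of the 8 and in 25.6% of all. Both were found in 4 of the 8 and in 5.27% of all, and these 4 are printed with both boxes in capitals (either strand, and no copies overlap).
Prss2, chr6:41521526-41521825 on the plus strand: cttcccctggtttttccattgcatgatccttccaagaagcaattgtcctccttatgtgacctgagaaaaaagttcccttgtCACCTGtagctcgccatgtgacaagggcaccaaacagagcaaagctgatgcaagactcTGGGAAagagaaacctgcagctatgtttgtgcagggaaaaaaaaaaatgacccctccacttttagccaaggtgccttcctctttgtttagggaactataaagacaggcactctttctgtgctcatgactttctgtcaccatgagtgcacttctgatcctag
Ctrl, chr8:105933813-105934112 on the minus strand: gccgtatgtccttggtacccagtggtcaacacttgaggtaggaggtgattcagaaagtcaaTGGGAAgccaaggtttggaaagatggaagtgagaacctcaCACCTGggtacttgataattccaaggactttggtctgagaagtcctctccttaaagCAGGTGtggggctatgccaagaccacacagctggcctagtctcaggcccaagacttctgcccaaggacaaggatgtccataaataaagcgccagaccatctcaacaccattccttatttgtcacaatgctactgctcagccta
Cela2a, chr4:141825956-141826255 on the minus strand: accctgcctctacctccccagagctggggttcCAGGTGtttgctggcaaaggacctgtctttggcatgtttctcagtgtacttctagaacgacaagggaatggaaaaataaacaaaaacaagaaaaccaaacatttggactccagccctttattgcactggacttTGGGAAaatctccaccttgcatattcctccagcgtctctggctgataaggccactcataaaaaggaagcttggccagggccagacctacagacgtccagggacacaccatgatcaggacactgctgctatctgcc
Cel, chr2:28563354-28563653 on the minus strand: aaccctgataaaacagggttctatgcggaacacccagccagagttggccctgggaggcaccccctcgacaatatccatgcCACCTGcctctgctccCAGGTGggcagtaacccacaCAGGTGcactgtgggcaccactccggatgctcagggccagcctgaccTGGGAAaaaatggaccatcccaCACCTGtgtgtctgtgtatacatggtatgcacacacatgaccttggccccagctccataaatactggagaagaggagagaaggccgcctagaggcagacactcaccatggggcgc
The nearest pair of boxes lay 16 bases apart in Cel, 34 in Ctrl, 52 in Prss2 and 127 in Cela2a. Cela2a and Cel, whose ratio lay between 0.737 and 0.791 in all 4 arrays, had the widest and the closest spacing of these 4. The TATA sequence TATAAA was found in 2 of the 8, Prss2 and Cela1, and in 13.6% of all promoters. A match is a description of these windows and not a binding site.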

How the data were processed

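Total RNA from 4 spleens or spleen pools was measured on 1-colour arrays. The authors deposited 1 intensity on a linear scale for each of 12488 probe sets, which are the values used here. How the authors scaled them, with which software and build, is not given in the sources used here. Over the 12422 non-control probe sets the 2% trimmed means were 2484 to 2494, so no scaling was added. A floor was set at the 25th percentile over all arrays (185.5), and log2 was taken. The 7453 probe sets whose mean log2 value lay above the 40th percentile were fitted with limma 3.58.1 in R 4.3.3 (lmFit, eBayes with trend, two-sided, Benjamini-Hochberg over all tested, threshold 0.05). The fit was tested on simulated data. Fold differences are on the floored log2 scale, which understates those of dim genes. Symbols came from the platform annotation, updated through gene IDs. The names of the probe sets given for Cuzd1, Reg3b, Vamp8, Miip and Tnpo1 also carry a mark for shared or less specific probes. Of the 12422 probe sets 10833 had 1 symbol, 396 several and 1193 none, and 10817 of the 10833 matched by ID. No 2 arrays were identical. The number of arrays limits the precision.

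Named were the 10 genes, Nfe2l2, the amylase probe sets, up to 6 genes of each further list by mean intensity, any measured exocrine gene, and the 6 nearest patterns. The trypsinogen family probe sets, Rbpjl, Ins2, Gcg, Iapp, Sst and Pdx1 were added after their values were seen. The members and lists were chosen with earlier results of these data known. Alternatives were tried for the scaling, the floor, the filter, the variance model, the baseline, the probe sets, a replicate block and each array left out. Leaving out the pancreas probe sets was added after seeing the data. Figures and motif searches used Python 3.11.15 with matplotlib 3.10.9.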

Additional observations from a re-analysis of the deposited data

How the results depend on the processing

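The median difference of the 10 genes between knockout and wild type, -2.01 on the log2 scale, ran from -2.07 to -1.73 over scaling, floor, pseudocount and probe-set choices, and from -3.01 to -1.11 with 1 array left out. The median difference between the wild-type arrays, 2.09, ran from 1.97 to 2.21. The median shift of pair ratios between the wild-type arrays, 0.53, was 0.72 with the knockout mean subtracted (36 pairs) and 0.57 after quantile normalization. Clps changed direction with scaling (-0.03 to 0.08) and with the array left out (-1.10 to 1.26). With the 40th percentile floor the difference was -1.82 for Pnliprp1 and -1.57 for Sycn. The 4 probe sets passing in the limma fit were 0 without the filter on dim probe sets, 3 to 13 with 1 array left out and 2 without the amylase and pancreas probe sets. Without an intensity trend 6 passed, 5 lower and 1 higher. With the replicate number as a block 36 passed, 26 lower and 10 higher. Among them were 7 of the 10 genes and 1 probe set of the other exocrine list (Tff2). Without the block, none of either passed in the fit of all arrays. With 1 array left out, the log2 difference of Prss2 ran from -5.53 to -3.04. Those fits leave 1 array in a group and were not read gene by gene. Nothing in the labels makes the replicate number a pairing, and deviations of same-numbered arrays correlated at 0.04, so this block has no stated basis. The cause of these changes was not tested.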
